A study of Homo sapiens with 18 samples.

Results

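FLRT1, FLRT2 and FLRT3 encode the 3 fibronectin leucine rich repeat transmembrane proteins, and they are 3 of the 23536 features measured. They were found by their Entrez gene numbers 23769, 23768 and 23767, which name the features of the table. Human embryonic stem cell (hESC) lines H9, HS360 and HS401 were cultured in hypoxia (4% oxygen) or in normoxia (21% oxygen), and RNA taken after 2 h, 24 h and 7 d was hybridized to exon arrays. Each line gave 1 array in each of the 6 groups, so the 18 arrays hold 3 cultures per group, 1 of each line. The stock cells had been grown on human foreskin fibroblast feeders, and all cultures of the experiment were kept on Matrigel in mTeSR1 medium without feeder cells. The 2 h and 24 h cultures spent their first days in normoxia, whereas the 7 d hypoxia cultures were moved to low oxygen soon after seeding, and the 7 d cultures were the longest overall. The fit takes out the mean of each line, so a p-value rests on the spread between cultures left after group and line. A difference between 7 d and 2 h cannot be told apart from a difference in the length of culture. FLRT3 was chosen by its 7 d difference between hypoxia and normoxia and its change over time in normoxia, both on these arrays. These values of FLRT3 are given as a description, with no test, and FLRT1 and FLRT2 joined through the family name.

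FLRT proteins carry leucine rich repeats and a fibronectin type III domain outside the cell, cross the membrane once and have a short cytoplasmic tail. The repeats bind latrophilins and UNC5 receptors on neighbouring cells, binding to UNC5 receptors repels axons and migrating neurons, and a complex with latrophilins and teneurins bridges cell membranes at synapses. FLRT proteins also associate with fibroblast growth factor (FGF) receptors. In the frog embryo FLRT3 is induced by activin and NODAL signals and, with the small GTPase RND1, lowers cadherin adhesion, and in the mouse embryo FLRT3 is needed for closure of the ventral body wall and for the migration of definitive endoderm.

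The promoter sequences are shown because the 3 genes differ in the CpG content in front of their start sites. They are the 250 bases before the most upstream listed start of FLRT2 and FLRT1 on the chromosome and before the single listed start of FLRT3, from RefSeq (GRCh38.p14), written 5′ to 3′ on the strand of the gene with CG dinucleotides in capitals. They lie at chr20:14337613-14337862 (minus strand) for FLRT3, chr14:85529894-85530143 (plus strand) for FLRT2 and chr11:64035681-64035930 (plus strand) for FLRT1.
FLRT3: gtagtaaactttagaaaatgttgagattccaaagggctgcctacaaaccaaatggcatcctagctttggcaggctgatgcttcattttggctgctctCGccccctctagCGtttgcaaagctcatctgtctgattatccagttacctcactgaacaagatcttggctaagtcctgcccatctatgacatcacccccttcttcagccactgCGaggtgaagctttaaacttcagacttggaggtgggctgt
FLRT2: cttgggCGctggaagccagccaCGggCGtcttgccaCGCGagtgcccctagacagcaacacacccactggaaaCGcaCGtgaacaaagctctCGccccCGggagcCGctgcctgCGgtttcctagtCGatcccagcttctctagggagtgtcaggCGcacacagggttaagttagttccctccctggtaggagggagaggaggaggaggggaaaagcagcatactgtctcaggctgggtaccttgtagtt
FLRT1: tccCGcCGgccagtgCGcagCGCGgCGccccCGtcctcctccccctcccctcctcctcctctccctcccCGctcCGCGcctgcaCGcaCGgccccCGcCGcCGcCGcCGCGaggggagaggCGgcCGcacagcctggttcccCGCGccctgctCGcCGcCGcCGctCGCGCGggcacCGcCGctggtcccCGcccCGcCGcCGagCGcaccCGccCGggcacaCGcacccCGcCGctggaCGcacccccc
The FLRT3 promoter held 3 CG dinucleotides and 47.6% G and C bases, and 22.9% of the 35116 promoters of this length held fewer CG dinucleotides. The FLRT2 promoter held 13 CG dinucleotides at 60.4% G and C bases. The FLRT1 promoter held 42 CG dinucleotides at 84.0% G and C bases, and 98.6% of promoters held fewer. The median over all promoters was 11 CG dinucleotides and 58.0% G and C bases. The windows before the other listed starts held 15 and 21 CG dinucleotides in FLRT2 and 23 in FLRT1, and 74.2% of promoters held fewer than 23, so the count of FLRT1 depended on the start taken. The core of the hypoxia response element was searched on both strands as ACGTG and as GCGTG, which 18.5% and 32.2% of all promoters hold. Neither was found in the FLRT3 window. The FLRT2 window held ACGTG 2 times, at 1 place read on either strand, and GCGTG 1 time. The FLRT1 window held GCGTG 2 times and ACGTG not at all. The TCF core CTTTGAT (2.26% of promoters), the T-box half-site GGTGTGA (2.76%) and TATAAA (10.7%) had no match in any of the 3 windows. In the windows before the other starts ACGTG was not found, and GCGTG was found 2 times at 1 further start of FLRT2 and 1 time at that of FLRT1. A match describes letters in the window and was not measured as a binding site.

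FLRT3 lies within the bounds of MACROD2 on chromosome 20, on the opposite strand, and FLRT1 within those of MACROD1 on chromosome 11, likewise on the opposite strand. Both host genes encode enzymes that remove ADP-ribose from proteins.

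The arrays were checked before the members were read. Median intensities per array lay between 131.6 and 160.9. On 5 arrays (H9 in hypoxia at 2 h and 24 h, HS401 in hypoxia at 24 h and HS401 in normoxia at 2 h and 24 h) the lower quartile of the log2 intensities was 5.64 to 5.70, against 5.89 to 6.17 on the other 13. The mean log2 intensity of 11 markers of pluripotent cells lay between 9.61 and 10.55 on all arrays, and POU5F1 itself between 6.43 and 8.66. The 10 fibroblast markers (3 collagen genes, DCN, LUM, THY1, POSTN, FBN1, PDGFRB and TAGLN) had a mean log2 intensity of 9.57 to 10.51 in hypoxia at 2 h and 8.64 to 9.45 in hypoxia at 7 d, and of 9.86 to 10.75 in normoxia at 2 h and 8.66 to 8.80 in normoxia at 7 d. RNA of other cells and RNA per cell cannot be told apart in such cultures.

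FLRT3 was highest in normoxia at 7 d in every line. After 7 d FLRT3 had log2 intensities of 6.62 (H9), 5.67 (HS360) and 8.32 (HS401) in hypoxia, against 8.36, 7.80 and 9.91 in the same lines in normoxia. In linear units this is 98.4, 50.9 and 320 in hypoxia, against 329, 223 and 962 in normoxia. Each line was lower in hypoxia, while the groups overlapped because HS401 in hypoxia lay between HS360 and H9 in normoxia. Hypoxia minus normoxia came to -1.74 for H9, -2.13 for HS360 and -1.59 for HS401 (log2), or 3.34-fold, 4.38-fold and 3.01-fold lower. The mean over the lines was -1.82 (log2, SE 0.24 from the fit, SD 0.28 over 3 lines), a fold of 3.53. This contrast chose the gene, so the value carries no test. Of all features, 0.357% were lower in hypoxia at 7 d at the thresholds of the study (unadjusted p under 0.01 and fold over 1.5).

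At the earlier times FLRT3 differed between hypoxia and normoxia in no common direction. After 2 h its log2 intensities were 7.08 (H9), 5.85 (HS360) and 8.39 (HS401) in hypoxia, against 7.23, 5.72 and 9.12 in normoxia. After 24 h it was 7.73, 5.82 and 8.64 in hypoxia, against 7.12, 6.30 and 8.36 in normoxia. At both times the hypoxia and normoxia values interleaved, and the lines disagreed in sign. The fitted difference at 2 h was -0.25 (SE 0.24, 95% interval -0.76 to 0.26, adjusted p = 1.0, limma with Benjamini-Hochberg adjustment over all features). The difference at 24 h was 0.14 (SE 0.24, 95% interval -0.37 to 0.64, adjusted p = 1.0 in limma), and it changed sign without H9 (-0.10) and when the 5 arrays of low lower quartile were left out (-0.41). None of the 3 members passed an adjusted p of 0.05 in limma at either time (0% of all features did at 2 h and 0.00425% at 24 h), and at an unadjusted p under 0.05 the count of members was also 0, beside 0.782% of all features at 2 h and 2.7% at 24 h. The oxygen effect at 24 h minus that at 2 h was 0.39 (SE 0.33), which holds the change in normoxia and is not tested. The tests of FLRT3 at 2 h and at 24 h use normoxia arrays that also enter its change over time in normoxia. They are therefore not independent of the choice of FLRT3.

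**Figure D1:**
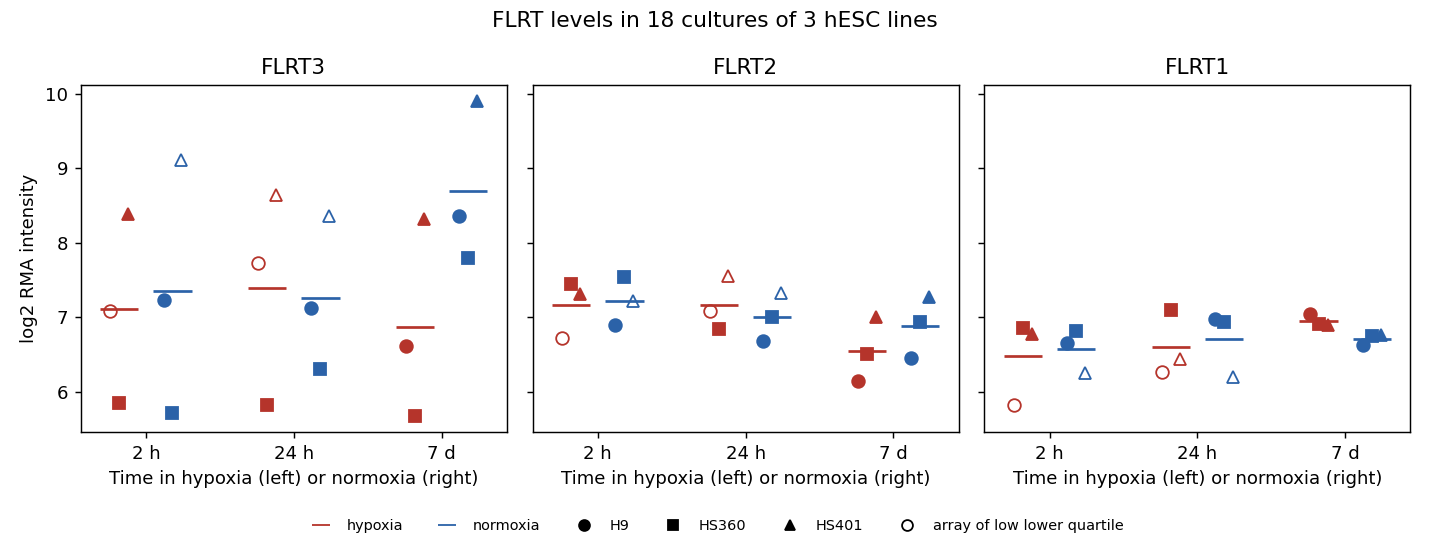
Level of FLRT3, FLRT2 and FLRT1 (log2 RMA intensity, vertical axis) in the 18 cultures at 2 h, 24 h and 7 d, with hypoxia (red) left of normoxia (blue), the shape giving the hESC line, the bar the mean of 3 lines and open points the 5 arrays of low lower quartile. FLRT3 at 7 d lay at 5.67 to 8.32 in hypoxia and at 7.80 to 9.91 in normoxia, and in both other genes the 3 lines lay closer together than for FLRT3.

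Over time FLRT3 moved in no common direction between 2 h and 24 h and was higher at 7 d in normoxia only. At 2 h, 24 h and 7 d of hypoxia the log2 intensity read 7.08, 7.73 and 6.62 in H9, then 5.85, 5.82 and 5.67 in HS360, and 8.39, 8.64 and 8.32 in HS401. At the same times of normoxia it read 7.23, 7.12 and 8.36 in H9, then 5.72, 6.30 and 7.80 in HS360, and 9.12, 8.36 and 9.91 in HS401. The 7 d value was the lowest of each line in hypoxia and the highest in normoxia. The difference of 24 h against 2 h was 0.29 in hypoxia (SE 0.24, 95% interval -0.22 to 0.80, adjusted p = 1.0 in limma). No feature passed the adjusted threshold in that comparison, and 2.18% had an unadjusted p under 0.05. In normoxia it was -0.10 (SE 0.24), given without a test.

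The difference of 7 d against 2 h in hypoxia was -0.46 for H9, -0.18 for HS360 and -0.07 for HS401, with a mean of -0.24 (log2, SE 0.24). In normoxia it was 1.13, 2.08 and 0.79, with a mean of 1.33 (SE 0.24), a fold of 2.52. Taken against 24 h, the 7 d value was lower in hypoxia in each line, at -1.11, -0.15 and -0.32, and higher in normoxia by 1.24 to 1.55. Of all features, 0.344% were likewise lower at 7 d than at 2 h in hypoxia in all 3 lines and higher in normoxia in all 3 lines. These values use the contrasts named in the choice of FLRT3 and share the 7 d arrays, so they are described only.

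When the mean of each line was subtracted, the groups of FLRT3 could be ordered by level, with 3 cultures each. Normoxia at 7 d was at 8.69 ± 0.32 (SD), followed by hypoxia at 24 h at 7.40 ± 0.38, normoxia at 2 h at 7.36 ± 0.40, normoxia at 24 h at 7.26 ± 0.27, hypoxia at 2 h at 7.11 ± 0.06 and hypoxia at 7 d at 6.87 ± 0.14. Normoxia at 7 d spanned 8.45 to 9.05 and did not overlap with any other group. FLRT3 was chosen by contrasts that use this group, so the separation is a description. The share of all features with such a separation was not computed. Hypoxia at 7 d spanned 6.71 to 6.98 and overlapped with normoxia at 2 h only, while the 4 groups between lay within their spread of one another.

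The fibroblast markers moved with time. All 10 were lower at 7 d than at 2 h in hypoxia and in normoxia, among them DCN, the proteoglycan decorin, at -1.83 in hypoxia (SE 0.38, adjusted p = 0.0213 in limma) and -2.74 in normoxia (SE 0.38, adjusted p = 0.00551). Their median difference was -0.85 in hypoxia and -1.5 in normoxia, beside 0.13 and 0.06 over all features, and 3 of 10 in hypoxia and 6 of 10 in normoxia passed the adjusted threshold (3.23% and 1.21% of all features). Between hypoxia and normoxia at 7 d their median was 0.44, beside 0.06 over all features, with 9 of 10 higher in hypoxia. None passed the adjusted threshold there in limma (2 at an unadjusted p under 0.05, as did 7.1% of all features), and the same 2, COL1A1 at 0.63 (SE 0.18) and COL3A1 at 0.63 (SE 0.21), passed the thresholds of the study, as named after their values were seen. Over the 18 arrays, with line means subtracted, the mean of these markers correlated with FLRT3 at r = -0.53. With this mean as a covariate, an alternative chosen after the data were seen, the FLRT3 values were -1.73 (SE 0.26) for hypoxia against normoxia at 7 d, -0.44 (SE 0.33) for hypoxia at 7 d against 2 h and 0.99 (SE 0.47) for normoxia at 7 d against 2 h.

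**Figure D2:**
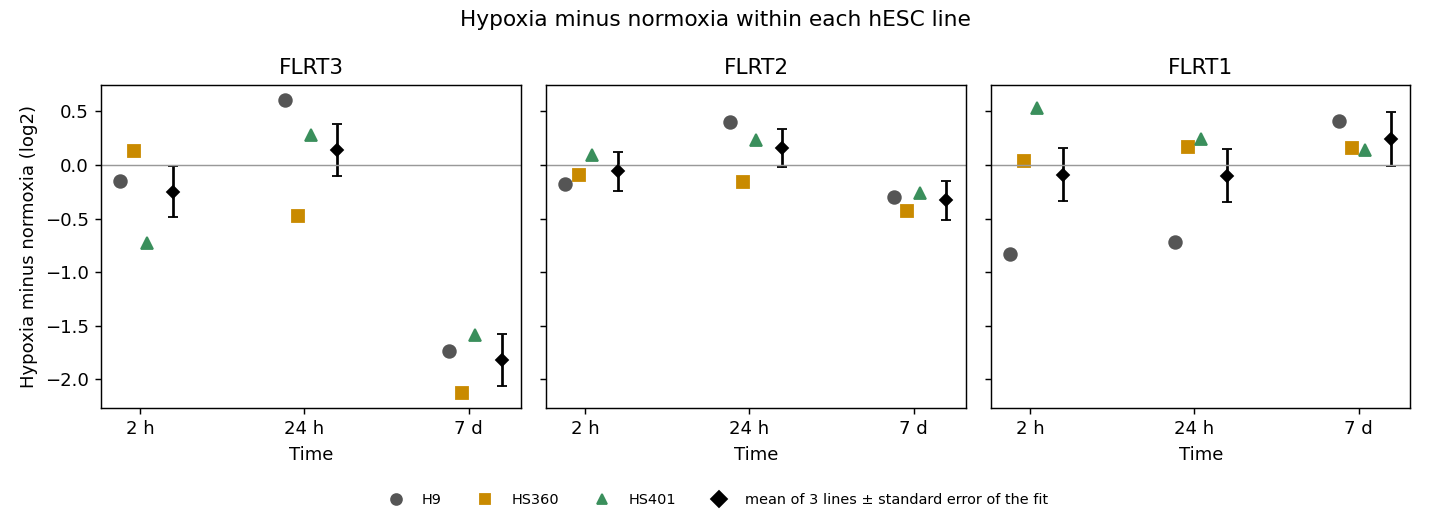
Hypoxia minus normoxia (log2, vertical axis) at 2 h, 24 h and 7 d for FLRT3, FLRT2 and FLRT1, with 1 point per hESC line and the diamond giving the mean of 3 lines ± the standard error of the fit. For FLRT3 the 3 lines lay on both sides of 0 at 2 h and 24 h and between -2.13 and -1.59 at 7 d.

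The hESC lines differed in FLRT3 more than in almost any other feature. Over its 6 cultures the log2 intensity of FLRT3 ran from 8.32 to 9.91 with a median of 8.52 in HS401, from 6.62 to 8.36 with a median of 7.18 in H9, and from 5.67 to 7.80 with a median of 5.84 in HS360. HS401 was highest and HS360 lowest in 6 of 6 combinations of oxygen and time, and 1.27% of all features kept 1 order of the lines in all 6. HS401 and HS360 did not overlap (3.22% of features were higher in HS401 with no overlap), whereas H9 in normoxia at 7 d reached into the range of HS401 and HS360 in normoxia at 7 d into that of H9.

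The level of FLRT3 was 1.43 higher in HS401 than in H9 (log2, SE 0.17, adjusted p = 7.64e-05 in limma), a fold of 2.70. It was 2.60 higher in HS401 than in HS360 (SE 0.17, adjusted p = 3.22e-07), a fold of 6.05, and 12 features had a larger difference between these lines. It was 1.16 higher in H9 than in HS360 (SE 0.17, adjusted p = 0.00128), a fold of 2.24. Each difference stood above the adjusted threshold, which 10.1%, 13.4% and 3.34% of all features passed in the same comparisons. The F test over the lines gave F = 121.4 (adjusted p = 6.65e-07, limma), with 39 features of larger F and 15.1% of features called. The 6 cultures of a line come from 1 derivation, so these tests compare the cultures of these lines and cannot speak for other hESC lines. Fewer cells carrying the transcript and less of it per cell cannot be told apart.

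HS401 also lay above H9 and HS360 on the mean of a list of early mesendoderm genes, which was not tested. The mean log2 intensity of the 20 listed primitive streak and mesendoderm genes was 8.01 to 8.45 in HS401, 7.23 to 7.67 in H9 and 7.46 to 7.75 in HS360. H9 lay below HS360 on the mean of that list and above it for FLRT3. The 11 markers of pluripotent cells averaged 10.30 in HS401, 9.93 in H9 and 9.79 in HS360, the order that FLRT3 had, and their part in the line differences was not tested. In HS360 in hypoxia FLRT3 stood above only 19.8% to 22.9% of the features of its array, and 5 of the 6 HS360 values lay between 5.67 and 6.30. No detection calls were used, so whether these are signal or background was not tested, and a fold against them may be too small.

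**Figure D3:**
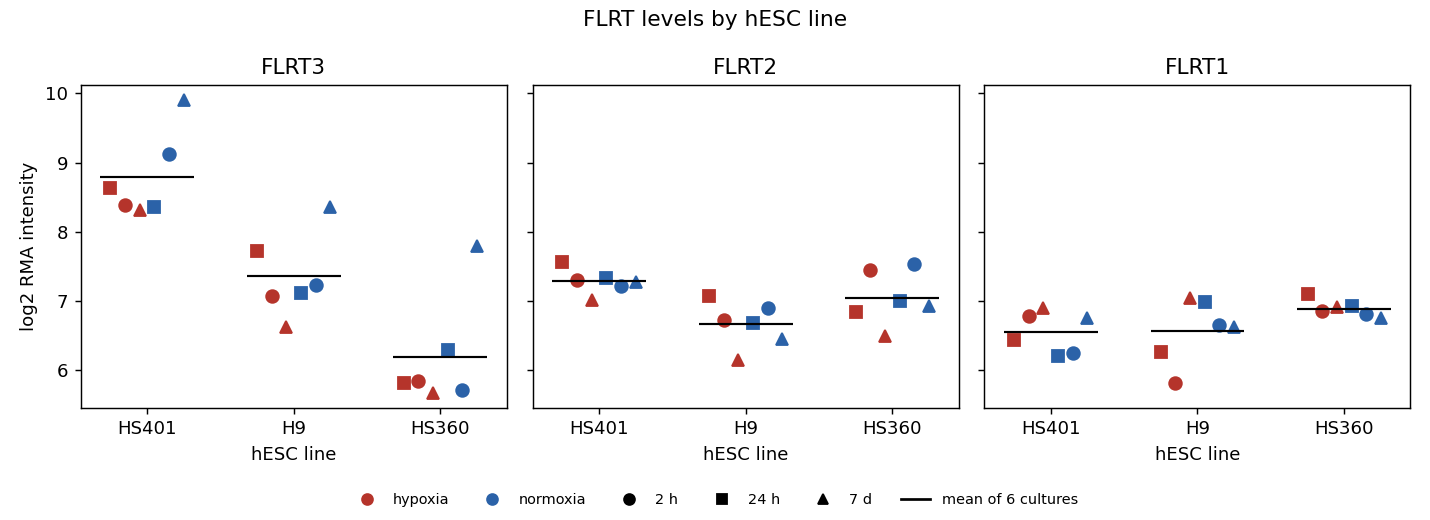
Level of FLRT3, FLRT2 and FLRT1 (log2 RMA intensity, vertical axis) by hESC line, 6 cultures per line, with hypoxia in red and normoxia in blue, the shape giving the time and the bar the mean of 6. FLRT3 ran from 8.32 to 9.91 in HS401, 6.62 to 8.36 in H9 and 5.67 to 7.80 in HS360, with the normoxia 7 d culture highest in each line.

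FLRT2, which in the mouse is needed for the integrity of the epicardium of the developing heart, varied over a narrower range of levels. After 7 d its log2 intensities were 6.15 (H9), 6.50 (HS360) and 7.01 (HS401) in hypoxia, against 6.45, 6.93 and 7.27 in normoxia. Each line was lower in hypoxia (-0.30, -0.43 and -0.26), and the groups overlapped. The fitted difference of -0.33 (SE 0.18, 95% interval -0.72 to 0.06) did not pass the test (adjusted p = 0.772 in limma). After 2 h the values were 6.72, 7.45 and 7.31 in hypoxia and 6.90, 7.54 and 7.22 in normoxia, and after 24 h they were 7.08, 6.84 and 7.56 in hypoxia and 6.68, 7.00 and 7.33 in normoxia. The differences were -0.06 (SE 0.18, 95% interval -0.45 to 0.33) at 2 h and 0.16 (SE 0.18, 95% interval -0.23 to 0.54) at 24 h, with lines of both signs at both times.

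The 7 d hypoxia cultures held the lowest FLRT2 of each line. The difference of 7 d against 2 h in hypoxia was -0.57 for H9, -0.95 for HS360 and -0.30 for HS401, and its mean was -0.61 (SE 0.18, 95% interval -0.99 to -0.22), a fold of 1.52. FLRT2 passed the thresholds of the study there (unadjusted p = 0.00462 in limma), as did 2.45% of features in the same direction, but not the adjusted threshold (adjusted p = 0.0816). FLRT2 missed the thresholds of the study with no block, with the line as a random block, with only the arrays of the groups compared, without H9 and without HS360, where limma gave unadjusted p-values of 0.0117 to 0.0471, and with the fibroblast mean as a covariate (0.229). Among all features, 11.7% were lower at 7 d than at 2 h in hypoxia in all 3 lines. In normoxia the difference was -0.45, -0.61 and 0.05, with a mean of -0.34 (SE 0.18, 95% interval -0.72 to 0.05, adjusted p = 0.562 in limma). The fibroblast markers fell in the same comparisons, and their mean correlated with FLRT2 at r = 0.69 over the 18 arrays with line means subtracted. With that mean as a covariate the difference of FLRT2 was -0.29 in hypoxia (SE 0.23, adjusted p = 0.516 in limma) and 0.21 in normoxia (SE 0.32). Between the lines FLRT2 was 0.62 higher in HS401 than in H9 (log2, SE 0.13, adjusted p = 0.00601 in limma), a fold of 1.54. Its difference was 0.24 between HS401 and HS360 (SE 0.13, 95% interval -0.03 to 0.51, adjusted p = 0.18) and -0.38 between H9 and HS360 (SE 0.13, 95% interval -0.65 to -0.11, adjusted p = 0.135).

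FLRT1, which in adult tissues is best known from the brain and kidney, passed no test between groups and was lowest on the 5 arrays of low lower quartile. After 7 d its log2 intensities were 7.04 (H9), 6.91 (HS360) and 6.90 (HS401) in hypoxia, against 6.63, 6.75 and 6.76 in normoxia. These groups did not overlap (10.7% of all features were higher in hypoxia at 7 d with no overlap), and the fitted difference was 0.24 (SE 0.25, 95% interval -0.30 to 0.78, adjusted p = 0.879 in limma). After 2 h FLRT1 was at 5.82, 6.85 and 6.78 in hypoxia and 6.65, 6.81 and 6.25 in normoxia, and after 24 h at 6.26, 7.10 and 6.44 in hypoxia and 6.98, 6.93 and 6.20 in normoxia. The fitted differences were -0.09 at 2 h (SE 0.25, 95% interval -0.63 to 0.45) and -0.10 at 24 h (SE 0.25, 95% interval -0.64 to 0.44), and each turned positive without H9 (0.29 and 0.20) or when the 5 arrays of low lower quartile were left out (0.09 and 0.13). In hypoxia 7 d exceeded 2 h by 0.47 (SE 0.25, adjusted p = 0.329 in limma). The lines were at 1.22 (H9), 0.06 (HS360) and 0.12 (HS401), and the H9 array at 2 h was 1 of the 5 of low lower quartile. No difference of FLRT1 between lines passed the test (F = 2.3, adjusted p = 0.256 in limma).

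The 5 arrays of low lower quartile held the 5 lowest values of FLRT1. They lay between 5.82 and 6.44, against 6.63 to 7.10 on the other 13 arrays, with no overlap, and 19.1% of all features were likewise lower on these 5 arrays with no overlap. Over the 18 arrays, with line means subtracted, FLRT1 correlated with the lower quartile of the array at r = 0.92, whereas r was -0.47 for FLRT2 and -0.20 for FLRT3. FLRT3 ran from 7.08 to 9.12 on the 5 arrays and from 5.67 to 9.91 on the other 13. None of the 7 d cultures was among the 5 arrays.

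**Figure D4:**
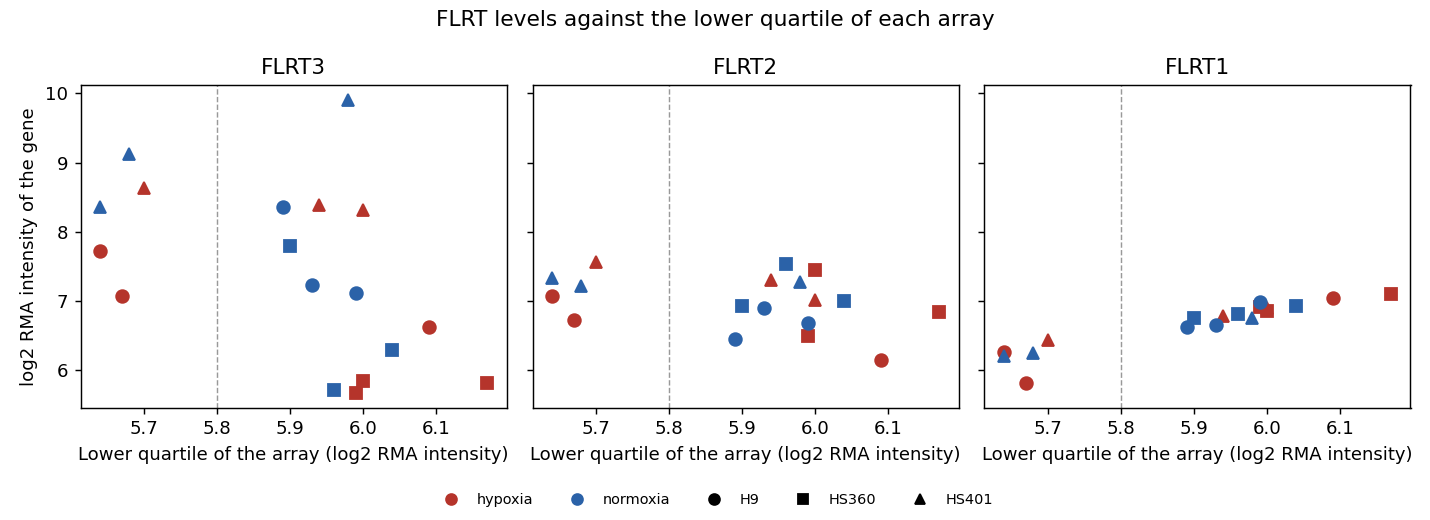
Level of FLRT3, FLRT2 and FLRT1 (log2 RMA intensity, vertical axis) against the lower quartile of the array (log2 RMA intensity, horizontal axis) for 18 arrays, with hypoxia in red, normoxia in blue, the shape giving the hESC line and the dashed line the limit of 5.8. FLRT1 lay between 5.82 and 6.44 on the 5 arrays left of the line and between 6.63 and 7.10 on the 13 right of it, and FLRT3 overlapped between them.

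The 3 members differed in their pattern over the arrays. Over the 18 arrays, with line means subtracted, r was 0.03 between FLRT3 and FLRT2, -0.15 between FLRT3 and FLRT1 and -0.41 between FLRT2 and FLRT1. FLRT3 and its host MACROD2 had r = 0.02. MACROD2 was at 5.09 to 5.35 in hypoxia at 7 d and 5.04 to 5.11 in normoxia at 7 d (log2), with a fitted difference of 0.10 (SE 0.14, 95% interval -0.19 to 0.40, adjusted p = 0.884 in limma). MACROD2 stood above at most 15.6% of the features of any array, so whether these values are signal or background was not tested. FLRT1 and its host MACROD1 had r = 0.87, and MACROD1 correlated with the lower quartile of the array at r = 0.87 as well. MACROD1 was at 8.14 to 8.37 in hypoxia at 7 d and 7.96 to 8.21 in normoxia at 7 d, with a fitted difference of 0.13 (SE 0.16, adjusted p = 0.882 in limma).

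None of the receptors that FLRT proteins bind passed a test between hypoxia and normoxia. All 10 listed receptors were measured: the latrophilins ADGRL1, ADGRL2 and ADGRL3, the netrin receptors UNC5A, UNC5B, UNC5C and UNC5D, the axon guidance receptor ROBO1 and the FGF receptors FGFR1 and FGFR2. At 7 d their differences between hypoxia and normoxia ran from -0.17 to 0.29 (log2), with a median of 0.05 beside 0.06 over all features. None passed the adjusted threshold in limma (0.0212% of all features did) or the thresholds of the study (0.867% did). At an unadjusted p under 0.05 there was 1 of 10, UNC5D at 0.29 (SE 0.12), beside 7.1% of all features. At 2 h and 24 h the receptors lay between -0.14 and 0.17, and none passed a threshold, nor an unadjusted p of 0.05 in limma.

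Over time FGFR1 was higher at 7 d in hypoxia and in normoxia at the thresholds of the study, and FGFR2 in hypoxia. FGFR1 was higher at 7 d than at 2 h by 0.59 in hypoxia (SE 0.18, adjusted p = 0.0891 in limma) and by 0.76 in normoxia (SE 0.18, adjusted p = 0.0585). FGFR2 was higher by 0.77 in hypoxia (SE 0.25, adjusted p = 0.107 in limma) and was at 0.61 in normoxia (SE 0.25, adjusted p = 0.345), past no threshold. None of these passed the adjusted threshold. The receptor list held 2 of 10 past the thresholds of the study in hypoxia and 1 of 10 in normoxia, beside 4.27% and 2.62% of all features.

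Of the 4 teneurins, the large cell surface proteins that bind latrophilins, TENM1 was higher in hypoxia at 7 d by 0.63 (SE 0.16, adjusted p = 0.337 in limma). This passed the thresholds of the study only, as did 0.867% of all features. TENM2 was at 0.39 (SE 0.14), TENM3 at 0.31 (SE 0.17) and TENM4 at -0.34 (SE 0.16), none past a threshold. At an unadjusted p under 0.05 in limma there were 2 of 4, TENM1 and TENM2, beside 7.1% of all features. At 24 h there was 1 of 4, TENM1 at 0.39 (SE 0.16), beside 2.7%. In hypoxia TENM1 was higher at 7 d than at 2 h by 0.68 (SE 0.16, adjusted p = 0.033 in limma), and in normoxia by 0.08 (SE 0.16, adjusted p = 0.975). It was the only teneurin past the adjusted threshold in hypoxia, which 3.23% of all features passed.

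The list of proteins that act with FLRT3 in adhesion holds RND1, the protocadherin PCDH8, the cadherins CDH1, CDH2 and CDH3, and CTNND1, which binds the cadherin tail. None of the 6 passed a threshold between hypoxia and normoxia at 7 d in limma. They lay between -0.23 (CDH2, SE 0.15) and 0.32 (RND1, SE 0.15) there. At an unadjusted p under 0.05 there was 1 of 6, RND1, beside 7.1% of all features. RND1 was higher at 7 d than at 2 h in hypoxia by 0.69 (SE 0.15, adjusted p = 0.0224 in limma), and in normoxia by 0.34 (SE 0.15, adjusted p = 0.38). It was the only gene of the 6 past the adjusted threshold in hypoxia, which 3.23% of all features passed.

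**Figure D5:**
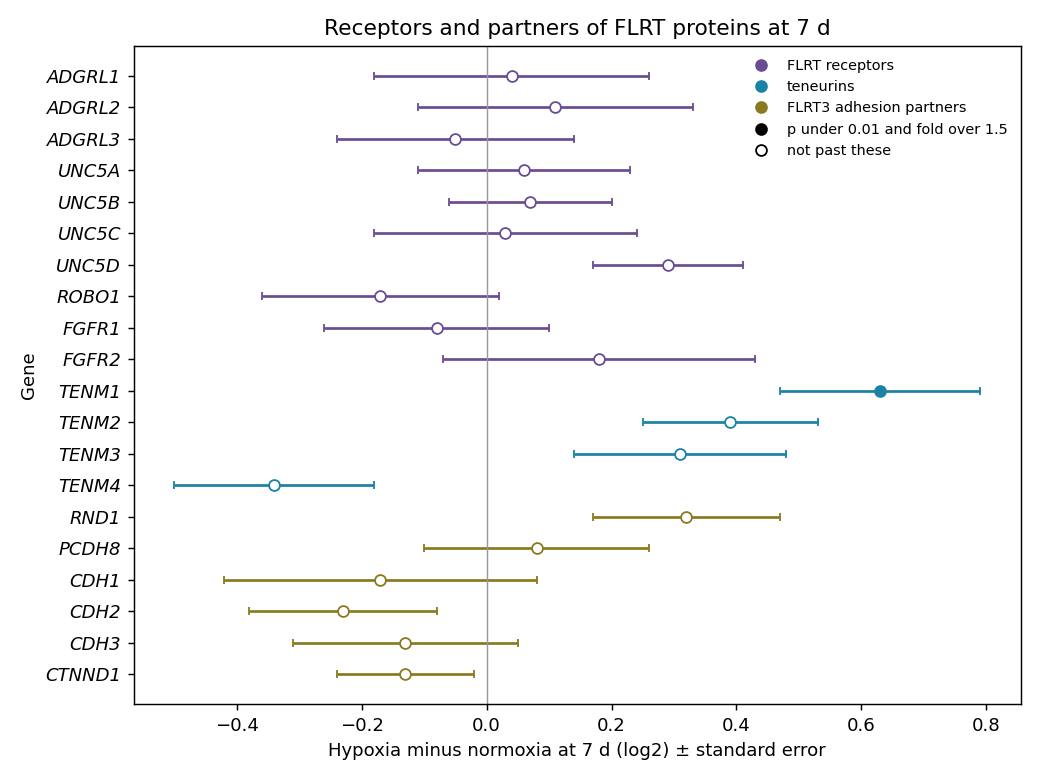
Hypoxia minus normoxia at 7 d (log2, horizontal axis) ± standard error of the fit over 3 lines for 10 FLRT receptors, 4 teneurins and 6 adhesion partners of FLRT3, with filled points past an unadjusted p of 0.01 and a fold of 1.5. Only TENM1 at 0.63 is filled, and the receptors lay between -0.17 and 0.29.

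Other surface proteins with leucine rich repeats were listed for comparison, and 37 of 38 were measured. Between hypoxia and normoxia at 7 d they lay between -0.65 and 0.53, with a median of 0.09 beside 0.06 over all features. None was past a threshold in limma there, and 4 were at an unadjusted p under 0.05 (7.1% of all features). The lowest was LRIG3 at -0.65 (SE 0.23). In hypoxia at 7 d against 2 h, LRRTM4, a postsynaptic adhesion protein, fell by 0.69 (SE 0.12, adjusted p = 0.0108 in limma), and LRIG2 was higher by 0.77 (SE 0.18, adjusted p = 0.0338). LRIG1, a brake on receptor tyrosine kinases, was higher by 0.63 (SE 0.17, adjusted p = 0.0532 in limma) and AMIGO2 was at -0.61 (SE 0.19, adjusted p = 0.0864), both past the thresholds of the study only. Of the 37 only LRRTM4 and LRIG2 passed the adjusted threshold in hypoxia in limma (3.23% of all features did). At an unadjusted p under 0.05 there were 10 of 37, beside 19% of all features. In normoxia AMIGO2 was at -0.61 too (SE 0.19, adjusted p = 0.15 in limma) and SLITRK4 at 0.60 (SE 0.19, adjusted p = 0.169), both past the thresholds of the study only. None of the 37 passed the adjusted threshold there in limma (1.21% of all features did), with 8 at an unadjusted p under 0.05 (11.1%).

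Genes of the embryonic programmes in which FLRT3 is known were read beside it. Of 20 primitive streak and mesendoderm genes, 16 were higher and 4 lower in hypoxia at 7 d, with a median of 0.11 beside 0.06 over all features. None passed a threshold in limma there (1 at an unadjusted p under 0.05, beside 7.1% of all features). In hypoxia at 24 h 3 were higher and 17 lower, with a median of -0.14 beside -0.03 over all features. In normoxia at 7 d against 2 h 13 were higher and 7 lower, none past a threshold in limma (3 at an unadjusted p under 0.05, beside 11.1% of all features). In hypoxia SNAI1, a repressor of CDH1, was higher at 7 d than at 2 h by 0.73 (SE 0.16, adjusted p = 0.0243 in limma), and CER1, a secreted inhibitor of NODAL, was at -1.33 (SE 0.39, adjusted p = 0.0797). SNAI1 was the only gene of the 20 past the adjusted threshold there (3.23% of all features). At an unadjusted p under 0.05 in limma there were 5 of 20, beside 19% of all features.

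Among 14 measured genes of NODAL and activin signalling, NODAL itself fell at 7 d against 2 h, by 1.77 in hypoxia (SE 0.26, adjusted p = 0.0055 in limma) and by 1.31 in normoxia (SE 0.26, adjusted p = 0.0228). No other of the 14 passed the adjusted threshold in these comparisons, which 3.23% of all features passed in hypoxia and 1.21% in normoxia. FST, which encodes the activin antagonist follistatin, had the same signs as FLRT3 in the comparisons with 7 d. It was at -1.28 in hypoxia against normoxia at 7 d (SE 0.23, adjusted p = 0.108 in limma). At 7 d against 2 h it was at -0.71 in hypoxia (SE 0.23) and at 0.82 in normoxia (SE 0.23). Each of these values passed the thresholds of the study only. Between hypoxia and normoxia the signs were opposite at 2 h (FST 0.26, FLRT3 -0.25) and at 24 h (-0.05 and 0.14). They were opposite too in hypoxia at 24 h against 2 h (FST -0.58, FLRT3 0.29). LEFTY2, an inhibitor of NODAL, was at 0.82 in hypoxia against normoxia at 7 d (SE 0.24, adjusted p = 0.428 in limma). At 7 d against 2 h LEFTY2 was at 0.01 in hypoxia (SE 0.24) and at -0.94 in normoxia (SE 0.24, adjusted p = 0.0766 in limma, past the thresholds of the study only). Of 10 genes of FGF feedback none passed a threshold between hypoxia and normoxia at 7 d in limma. At an unadjusted p under 0.05 there was 1 of 10, beside 7.1% of all features. IL17RD, an inhibitor of FGF signalling, fell at 7 d against 2 h by 0.53 in hypoxia (SE 0.12, adjusted p = 0.0278 in limma) and by 0.60 in normoxia (SE 0.12, adjusted p = 0.0222). No other of the 10 passed the adjusted threshold there (3.23% of all features in hypoxia and 1.21% in normoxia did).

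Markers of other fates were read beside the members. Of 9 measured neuroectoderm markers, OTX2 was higher at 7 d than at 2 h in normoxia by 0.98 (SE 0.21, adjusted p = 0.0348 in limma). PAX6 was at 0.98 there (SE 0.24, adjusted p = 0.07 in limma). In hypoxia at 7 d against 2 h OTX2 was at 0.62 (SE 0.21, adjusted p = 0.124 in limma) and PAX6 at 0.12 (SE 0.24). At 7 d against 2 h 8 of 9 were higher in normoxia (median 0.48, beside 0.06 over all features). In hypoxia 8 of 9 were higher as well (median 0.31, beside 0.13). PAX6 was at -0.84 in hypoxia against normoxia at 7 d (SE 0.24, adjusted p = 0.428 in limma). Over that list 6 were higher and 3 lower in hypoxia at 7 d, with a median of 0.07 beside 0.06. Of 9 trophoblast markers, MSX2 was higher at 7 d than at 2 h in normoxia by 0.88 (SE 0.19, adjusted p = 0.0334 in limma). In hypoxia it was at 0.24 (SE 0.19, adjusted p = 0.467 in limma). In that comparison 8 of 9 were higher in normoxia (median 0.16) and 8 of 9 in hypoxia (median 0.18). MSX2 was at -0.64 in hypoxia against normoxia at 7 d (SE 0.19, adjusted p = 0.428 in limma). There 5 of the list were higher and 4 lower, with a median of 0.08 beside 0.06 over all features. In normoxia at 7 d against 2 h no marker of these lists but OTX2 and MSX2 passed the adjusted threshold (1.21% of all features did). None of 11 markers of pluripotent cells passed a threshold between hypoxia and normoxia at 7 d in limma. At an unadjusted p under 0.05 there was 1 of 11, beside 7.1% of all features. Of the 11, 3 were higher and 8 lower in hypoxia there, with a median of -0.14 beside 0.06 over all features. At 7 d against 2 h in hypoxia 3 were higher and 8 lower, with a median of -0.29 beside 0.13. GDF3 at -0.95 (SE 0.29) and L1TD1 at -0.67 (SE 0.21) passed the thresholds of the study in that comparison (4.27% of all features did). At an unadjusted p under 0.05 in limma there were 6 of 11, beside 19% of all features. With line means subtracted, the mean of the neuroectoderm markers correlated with FLRT3 at r = 0.28, that of the trophoblast markers at r = 0.05, that of the pluripotent markers at r = 0.18 and that of the primitive streak and mesendoderm genes at r = -0.25 (-0.42 over the 13 arrays that were not of low lower quartile), and their part in the FLRT3 values was not tested.

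The genes whose pattern was most like that of FLRT3 were ranked by Pearson's r over the 18 arrays with line means subtracted, among 18176 genes. The 10 highest had r of 0.82 to 0.87. They were SLC29A3, a nucleoside transporter of lysosomes, CNPY3, a chaperone of Toll-like receptors, LRIG3, TSPAN14, a tetraspanin, ABCC4, an exporter of cyclic nucleotides, AMER1, an inhibitor of WNT signalling that binds APC, TM7SF2, a sterol reductase of cholesterol synthesis, ATP9A, a lipid flippase, IFTAP and STX8, a SNARE protein of late endosomes. All 10 were lower in hypoxia than in normoxia at 7 d, from -0.28 for CNPY3 (SE 0.11) to -0.65 for LRIG3 (SE 0.23). LRIG3 and ABCC4 also followed FLRT3 across lines, with r of 0.95 and 0.91 when line means were kept. By Spearman's rank correlation 4 of the 10 stayed among the 10 highest and 8 among the 100 highest. Without H9 4, without HS360 2 and without HS401 3 of the 10 stayed among the 10 highest, and 10, 9 and 9 among the 100 highest. With line means kept, 2 of the 10 stayed among the 100 highest.

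The 5 genes that ran most opposite to FLRT3 were NUTF2P4 (r = -0.82), the tubulin gene TUBB2A (-0.81), the transcription factor gene KLF7 (-0.81), the metallothionein gene MT2A (-0.80) and PRR16 (-0.79). MT2A was at 1.03 in hypoxia against normoxia at 7 d (SE 0.32) and at -1.12 in normoxia at 7 d against 2 h (SE 0.32), and KLF7 at 0.84 (SE 0.21) and -1.03 (SE 0.21). These genes were chosen for their likeness to FLRT3 in the same arrays, so their values are a description.

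For FLRT2 the closest genes were SEC61A1, the channel of the protein translocon (r = 0.91), MOCS2, ADGRL4, PERP and NCSTN, a subunit of gamma-secretase (0.90 each). For FLRT1 they were CD300LG and UNC45B (r = 0.98 each), TRPM1, PGLYRP2 and CTSW (0.97 each). Of the 5 neighbours of FLRT2, 0 stayed among the 5 highest without any single line, and all 5 stayed among the 100 highest each time. Of those of FLRT1, 0 stayed among the 5 highest without H9, 0 without HS360 and 2 without HS401. Among the 100 highest 3, 5 and 5 of them stayed. With line means kept, 1 of the 5 of FLRT2 and 5 of the 5 of FLRT1 stayed among the 100 highest. These 5 neighbours of FLRT1 correlated with the lower quartile of the array at r of 0.89 to 0.97. The neighbours of FLRT3 correlated with it at -0.46 to -0.04.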

How the data were processed

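The 18 samples are exon arrays of 3 hESC lines (H9, HS360, HS401), grouped by oxygen and time from their labels. The deposited values are linear intensity values that the authors made in Chipster with RMA, which corrects background, equalizes quantiles and summarizes probes, after assigning probes to Entrez genes. Versions and genome build are not given in the sources used here. RMA draws arrays to one distribution, so only relative levels are read, and the number of arrays limits the precision. Their log2 values were fitted over all 23536 features with limma 3.58.1 (R 4.3.3). The terms were 6 group means and the hESC line as a block (10 residual and 4.24 prior degrees of freedom). The study's methods name limma and no block. With the line as a block FST in hypoxia against normoxia at 7 d had an unadjusted p = 5.99e-05 in limma, the value that the study printed for it. The same line in both members of a pair gives the pairing, and deviations from group means correlated above 0.1 in 8 of 9 pairs (-0.00534 to 0.776). P-values were adjusted by Benjamini-Hochberg over all features (threshold 0.05), beside the study's thresholds (p under 0.01, fold over 1.5). Entrez numbers gave 20727 symbols from RefSeq, and 2809 features had none. The fit was tested on simulated data. The members and gene lists were chosen with earlier results of these data known. Named genes are the members, their hosts, up to 4 genes past a threshold or the most changed 2 of each partner list, up to 3 of other lists, and the most alike genes (LOC loci, pseudogenes by RefSeq type, snoRNAs and olfactory receptors left out). Alternatives were other blocks, other array sets, rescaling, other feature sets, leaving out each line, eBayes with trend and robust, and the lower quartile or fibroblast mean as covariate.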

Additional observations from a re-analysis of the deposited data

Results flagged for a closer look

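The change of FLRT3 over time had opposite signs in hypoxia and normoxia in every line. At 7 d against 2 h the mean over 3 lines was -0.24 in hypoxia (log2, SE 0.24) and 1.33 in normoxia (SE 0.24). In hypoxia the lines were at -0.46 (H9), -0.18 (HS360) and -0.07 (HS401), and 11.7% of all features were lower there in all 3 lines. At 7 d against 24 h the mean was -0.53 in hypoxia and 1.43 in normoxia. All 3 lines were lower in hypoxia and higher in normoxia in both comparisons, and 0.344% of all features showed this between 2 h and 7 d. The difference was not tested, because these arrays chose the gene.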

How the results depend on the processing

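FLRT3 in hypoxia against normoxia at 7 d stayed between -1.94 and -1.67 under 15 alternatives. Another block, another feature set or another eBayes setting cannot move this value in a balanced design, and it was -1.82 in each. The SE did move, from 0.14 with only the arrays of the groups compared to 0.94 with no replicate block. The FLRT3 difference of 7 d against 2 h ran from -0.44 to -0.10 in hypoxia, the -0.44 with the fibroblast mean as a covariate. In normoxia it ran from 0.96 to 1.60, both under 14 alternatives. The differences of FLRT3 between lines kept an adjusted p of at most 0.0181, and FLRT2 between HS401 and H9 of at most 0.0218, in limma under each alternative run. With no replicate block, or with the line or the 9 pairs as another kind of block, the differences between lines could not be estimated, and no tested difference of a member between groups was called at the adjusted threshold in limma before or after. With no replicate block FLRT2 in hypoxia at 7 d against 2 h stayed at -0.61 and missed the thresholds of the study (unadjusted p = 0.0471).

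Of the values that changed sign, those that were tested passed no adjusted threshold in either fit. The cause was not tested. With each line left out in turn they ran from -0.39 to 0.29 (FLRT1 at 2 h), -0.28 to 0.20 (FLRT1 at 24 h), -0.10 to 0.44 (FLRT3 at 24 h) and -0.13 to 0.21 (FLRT1, mean of 3 times) for hypoxia against normoxia. They ran from -0.43 to 0.23 for FLRT3 in normoxia at 24 h against 2 h, from -0.04 to 0.24 for FLRT1 in normoxia at 7 d against 2 h, from -0.04 to 0.34 for FLRT1 in hypoxia at 24 h against 2 h, and from -0.09 to 0.12 for the oxygen effect on FLRT1 at 24 h minus 2 h. Without the 5 arrays of low lower quartile, where hypoxia at 24 h keeps 1 array that is assumed to vary like the other groups, hypoxia against normoxia was 0.09 for FLRT1 at 2 h, and 0.13 for FLRT1, -0.25 for FLRT2 and -0.41 for FLRT3 at 24 h. In that fit FLRT3 at 24 h against 2 h was -0.05 in hypoxia and 0.23 in normoxia, FLRT1 in normoxia at 7 d against 2 h was -0.01, and the oxygen effect at 24 h minus 2 h was 0.04, -0.04 and -0.28 for FLRT1, FLRT2 and FLRT3. With the lower quartile as a covariate FLRT1 was at -0.03 for the mean oxygen effect, 0.11 for the oxygen effect at 24 h minus 2 h, 0.08 for HS401 minus H9 and 0.03 for HS401 minus HS360. A second quantile normalization gave 0.02 and median centring 0.01 for that oxygen difference of FLRT1, and both gave 0.03 for HS401 minus H9. With the fibroblast mean as a covariate FLRT2 was at 0.02 at 2 h and at 0.21 in normoxia at 7 d against 2 h.

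Counts of features past the adjusted threshold moved more. They were 5 for hypoxia against normoxia at 7 d (0 to 40 over the alternatives), 760 in hypoxia (0 to 1689) and 284 in normoxia (0 to 1276) at 7 d against 2 h, and 2378 (928 to 4759), 3148 (950 to 3704) and 787 (237 to 1184) for HS401 minus H9, HS401 minus HS360 and H9 minus HS360. At the thresholds of the study they were 20 (11 to 57), 99 (52 to 252) and 204 (110 to 408) between hypoxia and normoxia at 2 h, 24 h and 7 d, and 1005 (623 to 1318) in hypoxia and 617 (136 to 781) in normoxia at 7 d against 2 h. FLRT1 and FLRT2 lie below the median feature and so had no value among features above it.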
